A study of Aspergillus niger with 16 samples.

Results

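Exopolygalacturonases are secreted enzymes that remove D-galacturonic acid (GA) from the ends of homogalacturonan, the smooth backbone of pectin, whereas endopolygalacturonases cut inside the chain. In Aspergillus niger, a soil fungus used industrially for pectinases, such genes belong to a GA regulon that is switched on by GaaR, a zinc cluster transcription factor, and held off by the repressor GaaX in the absence of GA. The genes described here are *pgaX* (locus tag NRRL3_03144), *pgxB* (NRRL3_08281) and *pgxC* (NRRL3_05260), each known as an exopolygalacturonase gene. They were chosen by these tags, 3 of the 11580 genes with a read in any library, and all 3 were tested. The files carry tags only, and the names are from published knowledge. The coding lengths were close, at 1308 bases for *pgaX*, 1320 for *pgxB* and 1323 for *pgxC*. The files give no position for these genes, and no sequence of them was used here.

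The study asked which transcripts need GaaR when the fungus meets GA or pectin. A preculture of 16 h in complete medium with 2% D-fructose gave the mycelium, which was moved to minimal medium of pH 6 with 25 mM GA for 2 h or with 1% SBP, sugar beet pectin, for 2, 8 or 24 h. The reference strain (CBS 141257) and the strain without *gaaR* (ΔgaaR, CBS 141258) were compared in each of these 4 conditions, with 2 libraries per group and 16 in all. Further alleles of the strains, and the number of independent deletion clones, are not given in the sources used here, and 1 strain stands for the deletion. Library totals lay between 3203011 and 4574019 reads. Nothing in the labels says that replicates came from separate cultures, so the p-values measure the spread between these libraries, which may be technical. In RNA from whole mycelium, fewer expressing cells and less RNA per cell cannot be told apart.

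The deleted gene served as a check of the labels. *gaaR* had between 176 and 1984 reads in the 8 reference libraries. In the ΔgaaR strain its count was 30 and 1 after GA, 0 and 12 after 2 h of SBP, 24 and 24 after 8 h, and 0 and 0 after 24 h. No ΔgaaR library reached the reference counts of its condition, but 5 of the 8 still held *gaaR* reads. Replicates of the ΔgaaR strain stood apart from each other at 2 h, with more than a 2-fold gap for 9.9% of genes on GA and for 11.4% on SBP. In the reference strain these shares were 3.1% and 2.3%. After 8 and 24 h of SBP they were 2.6% and 7% in the reference strain and 3.1% and 1.7% in the ΔgaaR strain. The reference replicates at 24 h thus also stood apart, and the 24 h comparisons rest on them.

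In the reference strain *pgaX* was the most abundant of the 3 transcripts at 2 and 8 h. Levels are given in FPKM, reads per kilobase of coding length scaled to the library, a scale on which genes can be compared. *pgaX* stood at 628 and 769.6 FPKM on GA, 1050.4 and 846 after 2 h of SBP, 1079 and 1229 after 8 h, and 128 and 139 after 24 h. It therefore lay high in 3 conditions and lower in both libraries at 24 h, with no overlap. By level it ranked between place 126 and place 333 among all genes at 2 and 8 h, and at places 1324 and 1233 at 24 h.

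*pgxB* came second on GA, at 172 and 229 FPKM. On SBP its level was 549 and 418 FPKM at 2 h, 583 and 987 at 8 h, and 286 and 442 at 24 h. Both SBP libraries lay above both GA libraries at 2 h, while the 24 h and 2 h values on SBP overlapped. At 24 h *pgxB* exceeded *pgaX* in both libraries, the reverse of their order in the other 6 reference libraries.

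*pgxC* had the lowest level of the 3 in all 8 reference libraries. It stood at 100.4 and 99.4 FPKM on GA, 226 and 187 after 2 h of SBP, 194 and 189 after 8 h, and 7.92 and 7.87 after 24 h. The values of 2 and 8 h on SBP overlapped, and those of 24 h lay far below every other reference value. Its rank by level went from places 673 to 835 on SBP at 2 and 8 h to places 7336 and 7301 at 24 h.

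**Figure D1:**
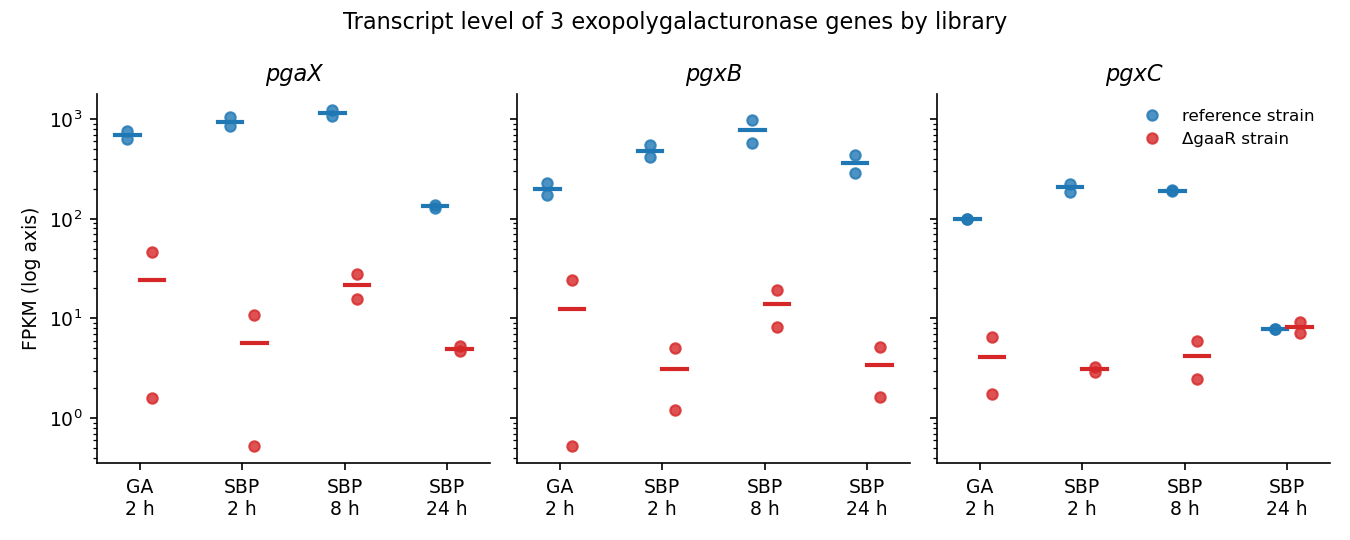
FPKM of *pgaX*, *pgxB* and *pgxC* on a log axis for each library (points; 2 per group) with the group mean (bar), in the reference and ΔgaaR strains on GA at 2 h and on SBP at 2, 8 and 24 h. The ΔgaaR points lie below the reference points everywhere except for *pgxC* at 24 h, where the reference libraries at 7.92 and 7.87 FPKM fall between the ΔgaaR libraries at 7.13 and 9.29.

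Whether the exopolygalacturonase genes stood higher on SBP than on GA was asked in the reference strain at 2 h. GA was dosed in mM and SBP in percent, so the doses were not matched. No library came from mycelium moved to a medium without GA or SBP. Induction, and an effect of the polymer beyond its monomer, were therefore not tested. *pgxC* was higher on SBP than on GA, with a log2 fold change of 0.99 (standard error, SE, 0.28, edgeR adjusted p = 0.0084). It was the 1 of 3 genes called higher at an adjusted p under 0.05, where 27.3% of all 10003 genes tested were higher. *pgxB* changed by 1.21 (SE 0.67, adjusted p = 0.15) and *pgaX* by 0.39 (SE 0.73, adjusted p = 0.69), and neither was called. For *pgaX* the 95% interval of the change ran from -1.17 to 1.95. The fit estimates 1 spread per gene over all 16 libraries, the widely spread ΔgaaR ones included. When the 4 reference libraries alone were fitted, *pgxB* was called (1.16, adjusted p = 0.00064). The *pgxC* call was lost without GA replicate 1 (adjusted p = 0.055), without SBP replicate 1 (0.07) and with limma on log2(FPKM + 0.1) (0.089).

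Over time on SBP, no change of the 3 genes was detected from 2 to 8 h, and by 24 h 2 of them had fallen. Between 2 and 8 h edgeR called 0 of 3, 0 at an unadjusted p under 0.05 and 0 with DESeq2 or limma, while 40.5% of all genes were called. The intervals reached from -1.40 to 1.71 for *pgaX*, from -0.85 to 2.00 for *pgxB* and from -0.84 to 0.36 for *pgxC* on the log2 scale. Fitted on those 4 libraries alone, *pgxB* rose by 0.60 (adjusted p = 0.038).

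From 8 to 24 h, *pgxC* fell by 4.67 (SE 0.32, adjusted p = 3.55e-08) and *pgaX* by 3.19 (SE 0.74, adjusted p = 0.0041) on the log2 scale. These 2 of 3 genes were lower against a background of 21.4% lower genes. For *pgxB* the change of -1.19 (SE 0.67, adjusted p = 0.17) was not called, though it was in the fit of those 4 libraries alone (-1.20, adjusted p = 0.023). Against 2 h, the level at 24 h was lower by 4.90 for *pgxC* (SE 0.32, adjusted p = 2.44e-08) and by 3.03 for *pgaX* (SE 0.74, adjusted p = 0.0049), with 23.9% of all genes called lower. For *pgxB* this change was -0.61 (95% interval -2.04 to 0.82, adjusted p = 0.47). The activator gene *gaaR* stood at 234 and 215 FPKM at 2 h, at 58.1 and 62.9 at 8 h and at 82.5 and 94.9 at 24 h. Its transcript fell by 2.02 on the log2 scale from 2 to 8 h (SE 0.48, adjusted p = 0.0043), and the change from 2 to 24 h was -1.54 (SE 0.47, adjusted p = 0.015), with a change of 0.48 from 8 to 24 h (SE 0.48, adjusted p = 0.44). Both *pgaX* calls were lost with limma on log2(FPKM + 0.1), at adjusted p = 0.065 against 8 h and 0.083 against 2 h.

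From 8 to 24 h the whole list of 5 uptake and catabolic genes of GA fell as well, led by the dehydratase gene *gaaB* (-5.60, SE 0.40) and the transporter gene *gatA* (-4.29, SE 0.33), with a median of -3.77 against 0.05 over all genes. All 6 other homogalacturonan enzymes fell too (median -3.11), led by the pectin lyase gene *pelA* (-5.16, SE 0.31) and the methylesterase gene *pmeA* (-4.96, SE 0.67). Between 2 and 8 h, however, 5 of these 6 enzymes had risen, where 21% of all genes had, led by the endopolygalacturonase gene *pgaE* (5.68, SE 0.39) and *pelA* (4.28, SE 0.31). Their median change was 3.28, against 0.16 for the exopolygalacturonase genes and -0.02 over all genes. The 3 endopolygalacturonase genes of this list and *pelA* rose from 2 to 8 h and fell after it. None of the 3 exopolygalacturonase genes described here was called higher in the same fit. These lists were chosen with results of this study known and are partial.

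The make-up of the summed level of the 3 genes shifted with time, and any other exopolygalacturonase gene was not counted. In the reference strain the summed level of the 3 genes was 900.3 and 1098 FPKM on GA, 1825 and 1451 after 2 h of SBP, 1856 and 2404 after 8 h, and 422.5 and 589 after 24 h. *pgaX* held 69.8% and 70.1% of this sum on GA and between 51.1% and 58.3% on SBP at 2 and 8 h. At 24 h it held 30.4% and 23.5%, and *pgxB* held 67.8% and 75.1%. The share of *pgxC* was between 7.85% and 12.9% in the 6 earlier libraries and 1.87% and 1.34% at 24 h. With 2 libraries per group these shares are descriptions without a test.

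**Figure D2:**
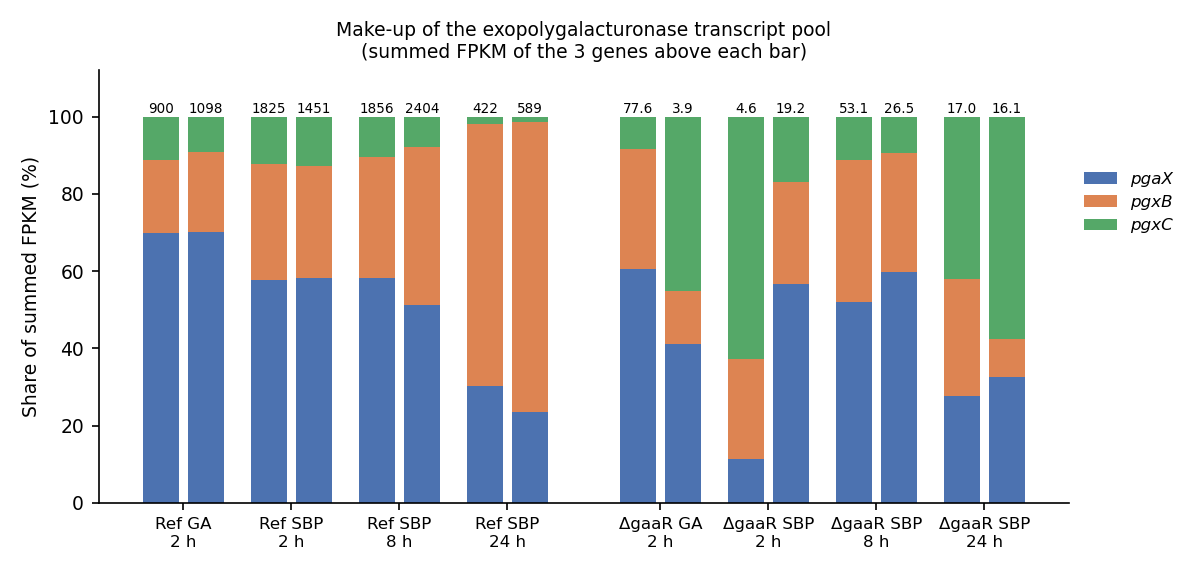
Share of the summed FPKM of the 3 genes held by *pgaX*, *pgxB* and *pgxC* in each of the 16 libraries (1 bar per library, in percent), with the summed FPKM above each bar. In the reference strain *pgxB* takes over from *pgaX* at 24 h; in the ΔgaaR strain the sums lie between 3.88 and 77.6 FPKM and the shares differ between replicates at 2 h.

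On GA at 2 h all 3 genes were lower in the ΔgaaR strain. *pgaX* stood at 46.9 and 1.60 FPKM (209 and 9 reads), *pgxB* at 24.25 and 0.53 (109 and 3 reads) and *pgxC* at 6.44 and 1.75 (29 and 10 reads). Each of these values lay below both reference values, and in each gene replicate 1 was the higher. The log2 fold change was -5.09 for *pgaX* (SE 0.77, adjusted p = 0.00018), -4.27 for *pgxB* (SE 0.75, adjusted p = 0.00035) and -4.79 for *pgxC* (SE 0.37, adjusted p = 4.6e-08). This made 3 of 3 genes lower, where 23.5% of all genes were. The size rested on the replicate. Without ΔgaaR replicate 1 it was -8.71, -8.47 and -5.77 for *pgaX*, *pgxB* and *pgxC*, and without replicate 2 it was -4.14, -3.30 and -4.20. On the log2(FPKM + 1) and log2(FPKM + 0.1) scales limma gave -5.96 and -6.28 for *pgaX* and -5.00 and -5.66 for *pgxB*.

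On SBP at 2 h all 3 genes were lower again. The ΔgaaR libraries held 0.52 and 10.9 FPKM of *pgaX* (3 and 53 reads), 1.20 and 5.09 of *pgxB* (7 and 25 reads) and 2.90 and 3.25 of *pgxC* (17 and 16 reads). No value came near the reference libraries, the lowest of which held 187 FPKM of *pgxC*. The log2 fold change was -7.50 for *pgaX* (SE 0.88, adjusted p = 0.00015), -7.34 for *pgxB* (SE 0.90, adjusted p = 0.0001) and -6.07 for *pgxC* (SE 0.39, adjusted p = 9.98e-08). All 3 were lower, against 7.21% of all genes, and *pgaX* and *pgxB* held places 2 and 4 among the 10003 genes in order from the lowest change. Without ΔgaaR replicate 2 the change was -10.64 for *pgaX* and -8.49 for *pgxB*, and without replicate 1 it was -6.59 and -6.71. With limma on log2(FPKM + 0.1) it was -8.50 for *pgaX*.

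At 8 h on SBP the effects of the 3 genes lay closest together. In the ΔgaaR strain *pgaX* had 27.6 and 15.8 FPKM, *pgxB* 19.5 and 8.21, and *pgxC* 5.97 and 2.48. All lay below the reference values of the same gene, and replicate 1 was again the higher in each. The log2 fold changes were -5.73 for *pgaX* (SE 0.77, adjusted p = 0.0001), -5.83 for *pgxB* (SE 0.73, adjusted p = 4.23e-05) and -5.51 for *pgxC* (SE 0.37, adjusted p = 2.06e-08). These were 3 of 3 lower genes, against 21.4% of all genes. Without ΔgaaR replicate 1 the change was -6.59 for *pgxB* and -6.26 for *pgxC*.

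At 24 h *pgaX* and *pgxB* were lower without *gaaR*, and no difference was detected for *pgxC*. *pgxC* had 7.13 and 9.29 FPKM (40 and 52 reads) in the ΔgaaR strain against 7.92 and 7.87 (47 and 48 reads) in the reference, so the groups overlapped. Its log2 fold change was -0.14 (SE 0.36, adjusted p = 0.82), with a 95% interval from -0.90 to 0.62. The interval lies well above the effects of this gene in the other 3 conditions, but a p that misses the threshold does not show equal levels. *pgaX* had 4.69 and 5.24 FPKM in the ΔgaaR strain and a change of -4.93 (SE 0.88, adjusted p = 0.00078). *pgxB* had 5.18 and 1.61 FPKM and a change of -6.94 (SE 0.87, adjusted p = 3.3e-05), or -7.95 without ΔgaaR replicate 1. Thus 2 of 3 genes were lower, against 15.8% of all genes.

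**Figure D3:**
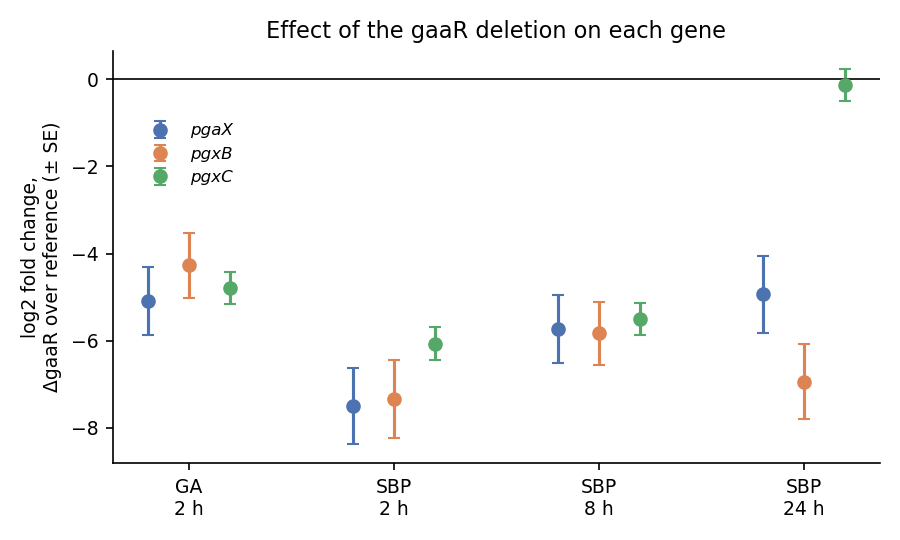
Log2 fold change of the ΔgaaR over the reference strain with its SE (edgeR fit of all 16 libraries, n = 2 per group) for each gene and condition. The 11 other values lie between -7.50 and -4.27, and *pgxC* at 24 h lies at -0.14.

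Whether the deletion effect changed between conditions was tested as an interaction. For *pgxC* it shrank by 24 h, by 5.37 on the log2 scale against 8 h (SE 0.51, adjusted p = 1.24e-06) and by 5.93 against 2 h (SE 0.53, adjusted p = 1.48e-06), with 33.9% and 24% of all genes called for these 2 interactions. Without ΔgaaR SBP 8 h replicate 1 the former was 6.13. *pgaX* (0.79, SE 1.18, adjusted p = 0.65) and *pgxB* (-1.10, SE 1.14, adjusted p = 0.49) did not pass against 8 h. Their intervals, -1.70 to 3.29 and -3.51 to 1.31, leave out a shrinkage of the size seen for *pgxC*. Against 2 h the difference was 0.40 for *pgxB* (95% interval -2.26 to 3.06, adjusted p = 0.86) and 2.56 for *pgaX* (-0.08 to 5.21, adjusted p = 0.16). For *pgaX* it was called without ΔgaaR SBP 2 h replicate 2 (5.71, adjusted p = 0.019), near the 5.93 of *pgxC*. Between 2 and 8 h no gene passed: edgeR called 0 of 3, as did the count at an unadjusted p under 0.05, DESeq2 and limma, with 28% of all genes called. Without ΔgaaR SBP 2 h replicate 2, *pgaX* passed (4.91, adjusted p = 0.034).

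Between GA and SBP at 2 h, the effect on *pgxB* was deeper on SBP by -3.07 (SE 1.17, adjusted p = 0.047), with 37.3% of all genes called. This call rested on single libraries. It turned to 1.13 (adjusted p = 0.56) without ΔgaaR GA replicate 1, the library with 109 *pgxB* reads. It was also lost without either reference replicate on GA or SBP (adjusted p from 0.067 to 0.13), without ΔgaaR SBP replicate 1 (0.15), with the replicate number as a block (-2.95, 0.064), with only the compared groups (0.081), with DESeq2 (0.13) and with limma (0.25 and 0.43). *pgaX* (-2.41, SE 1.17, adjusted p = 0.12) and *pgxC* (-1.28, SE 0.54, adjusted p = 0.074) were not called. *pgaX* turned to 1.21 without ΔgaaR GA replicate 1. It passed without ΔgaaR GA replicate 2 (-3.35, adjusted p = 0.0031) and without ΔgaaR SBP replicate 2 (-5.55, adjusted p = 0.013), and *pgxC* passed without ΔgaaR GA replicate 2 (-1.87, adjusted p = 0.0067) and with DESeq2 (-1.28, adjusted p = 0.043).

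Whether 2 of the genes differed in their deletion effect was tested on their log2 ratio within each library, over all 4 conditions. Strain labels were permuted exactly within conditions, which gives 1296 arrangements and a smallest two-sided p of 0.0015. The mean effect on *pgaX* minus that on *pgxC* was -2.22 (adjusted p over the 3 pairs = 0.028, exact permutation test). For *pgxB* against *pgxC* the difference was -2.40 (exact permutation, adjusted p = 0.06), and for *pgaX* against *pgxB* 0.18 (exact permutation, adjusted p = 0.71). By condition, *pgaX* minus *pgxC* was -1.44 on GA, -2.49 on SBP at 2 h, -0.18 at 8 h and -4.77 at 24 h. Without the 24 h libraries the mean was -1.37 and no longer passed (exact permutation, adjusted p = 0.17). It also missed the threshold without SBP at 2 h (-2.13, 0.17) or at 8 h (-2.90, 0.056). With a condition left out, the test has fewer than 1296 arrangements and its smallest p lies above 0.0015.

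What remained of each transcript in the ΔgaaR libraries is given as a percentage of the reference mean of the same condition. On GA, *pgaX* was at 6.72% in replicate 1 and 0.23% in replicate 2, *pgxB* at 12.1% and 0.26%, and *pgxC* at 6.44% and 1.75%. The reads on *gaaR*, the deleted gene, moved the same way, at 14.9% and 0.38% of the reference. On SBP at 2 h, *gaaR* was at 0 and 0.64%, *pgaX* at 0.05% and 1.15%, *pgxB* at 0.25% and 1.05%, and *pgxC* at 1.41% and 1.57%. In both media at 2 h, the replicate with more *gaaR* reads also had more reads of *pgaX* and *pgxB*. For *pgxC* this held on GA but not on SBP, where replicates 1 and 2 had 17 and 16 reads. At 8 h, with *gaaR* at 4.97% and 4.44%, the 3 genes lay between 1.05% and 3.12%. The part of these *gaaR* reads in the remaining level was not tested.

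At 24 h, with *gaaR* at 0 reads in both ΔgaaR libraries, *pgaX* was at 3.52% and 3.93%, *pgxB* at 1.42% and 0.44%, and *pgxC* at 90.3% and 118%. A remaining level of *pgaX* and *pgxB* was thus measured in libraries with no *gaaR* read, though at 9 to 29 reads per gene.

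**Figure D4:**
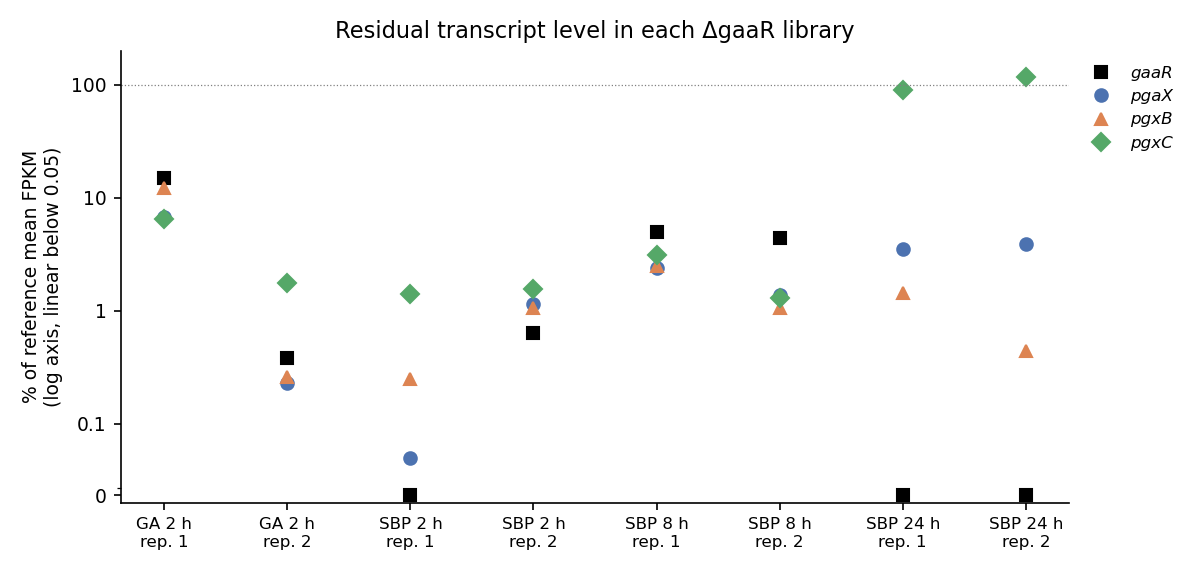
Level of *gaaR*, *pgaX*, *pgxB* and *pgxC* in each of the 8 ΔgaaR libraries, as a percentage of the reference mean FPKM of the same condition (log axis, linear below 0.05%; the dotted line marks 100%). At 2 h on GA all 4 genes are higher in replicate 1 than in replicate 2, and at 24 h *pgxC* lies at 90.3% and 118% while *gaaR* is at 0.

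Within the ΔgaaR strain the main edgeR fit of all libraries called no change of these genes with carbon source or time at an adjusted p under 0.05. Other edgeR settings on all libraries, other tools and subsets called some. From GA to SBP at 2 h edgeR called 0 of 3, with 1 at an unadjusted p under 0.05 and 0 with DESeq2 or limma, while 31% of all genes were called. The change was -2.02 for *pgaX* (SE 0.91, adjusted p = 0.11), -1.86 for *pgxB* (SE 0.96, adjusted p = 0.15) and -0.28 for *pgxC* (SE 0.46, adjusted p = 0.68). These values depended on single libraries. Without GA replicate 1 they were 1.60, 2.35 and 0.70, none of them called. Without GA replicate 2 the fall was called for *pgaX* (-2.97, adjusted p = 0.0031) and *pgxB* (-2.83, adjusted p = 0.0046), and without SBP replicate 2 for *pgaX* (-5.17, adjusted p = 0.017). From 2 to 8 h on SBP edgeR called 0 of 3, with 1 at an unadjusted p under 0.05 and 0 with DESeq2 or limma, against 30.3% of all genes. The changes were 1.93 for *pgaX* (SE 0.91), 2.08 for *pgxB* (SE 0.95) and 0.32 for *pgxC* (SE 0.45). Without the 2 h replicate 2, *pgaX* rose by 5.07 (adjusted p = 0.016).

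From 8 to 24 h in the ΔgaaR strain *pgaX* changed by -2.39 (SE 0.91, adjusted p = 0.061) and *pgxB* by -2.29 (SE 0.92, adjusted p = 0.067). Here edgeR called 0 of 3, with 2 at an unadjusted p under 0.05 and 0 with DESeq2 or limma, against 29% of all genes. Both passed with only the compared libraries in the fit (adjusted p = 1.68e-05 and 0.00083) and without the low count filter (0.036 and 0.042). *pgxC* went the other way, with a change of 0.70 against 8 h (SE 0.40, adjusted p = 0.20; 1.46 and 0.048 without 8 h replicate 1) and of 1.03 against 2 h (SE 0.42, adjusted p = 0.051). Both 24 h libraries, at 7.13 and 9.29 FPKM, lay above the other 6 ΔgaaR libraries, the highest of which was 6.44. With TMM scaling this gap was lost, since the lower 24 h library, at a log2 CPM of 3.02, lay below GA replicate 1 (3.10) and 8 h replicate 1 (3.08). The comparison with 2 h had edgeR calls for 0 of 3 genes, with 1 at an unadjusted p under 0.05 and 1 each with DESeq2 and both limma fits, *pgxC* every time, against 45.8% of all genes. Its adjusted p lay between 0.015 and 0.053 over the changes of scaling, filter, model and groups fitted, and between 0.058 and 0.24 with single libraries left out.

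Set beside the other pathway genes, the deletion effect at 24 h of *pgxC* was the closest to 0. Its reference level at 24 h, 7.92 and 7.87 FPKM, already lay between the ΔgaaR values of 7.13 and 9.29. At that time 4 of the 5 uptake and catabolic genes were lower without *gaaR*, led by *gatA* (-5.17, SE 0.46) and the aldolase gene *gaaC* (-4.13, SE 0.35), with a median of -3.35 against -0.02 over all genes. Of the 6 other homogalacturonan enzymes 4 were lower, led by the endopolygalacturonase gene *pgaC* (-5.51, SE 1.25) and the methylesterase gene *pmeC* (-4.18, SE 0.60), with a median of -2.58. The *pgaC* value rests on 0 and 4 reads in the ΔgaaR strain against 153 and 30 in the reference. For *pmeC* the reads were 6 and 11 against 223 and 70. The list genes not called at 24 h were *gaaD* (-0.80, edgeR adjusted p = 0.089), *pgaI* (-1.22, 0.083) and *pmeA* (-2.74, 0.098). At 8 h, 5 of 5 and 6 of 6 had been lower, with medians of -5.39 and -3.62, against -5.73 for the exopolygalacturonase genes. Of these 11 genes 9 had an effect closer to 0 at 24 h than at 8 h. The share of all genes with this change was not computed, so this count cannot be weighed. The interaction of 24 against 8 h was called as a smaller effect for 4 of the 5 and 3 of the 6. It was called as a deeper effect for 1 of the 6, with 33.9% of all genes called in either direction. On GA the counts were 5 of 5 and 5 of 6, and on SBP at 2 h 5 of 5 and 4 of 6, with medians of -6.14 and -2.11 at 2 h on SBP against -7.34 for the exopolygalacturonase genes. Of all genes tested, 23.5% were lower on GA, and 7.21%, 21.4% and 15.8% on SBP at 2, 8 and 24 h. No test compared the lists.

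**Figure D5:**
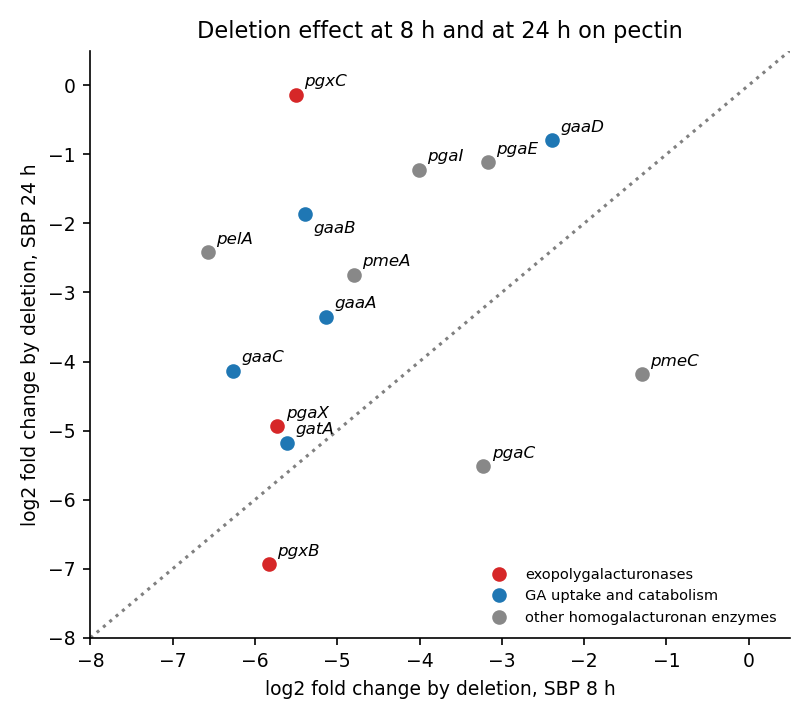
Log2 fold change of the ΔgaaR over the reference strain on SBP at 8 h (x axis) and 24 h (y axis) for the 3 exopolygalacturonase genes, 5 genes of GA uptake and catabolism and 6 other homogalacturonan enzymes (1 point per gene; the dotted line marks equal effects). *pgxC* moves from -5.51 to -0.14, while *pgaX* (-5.73 and -4.93) and *pgxB* (-5.83 and -6.94) stay near the line.

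Which genes followed each exopolygalacturonase gene most closely was described by Pearson's correlation of log2 CPM (TMM scaled) over the 16 libraries, among 7085 genes with a mean of at least 10 FPKM. The libraries share the strain difference, so these values carry no p. *pgaX* was most like NRRL3_05252 (r = 0.967), *pgxB* (0.959) and NRRL3_06053 (0.953). *pgxB* was most like NRRL3_10559 (0.974), followed by the activator gene *gaaR* itself (0.965), NRRL3_06053 (0.96) and *pgaX* (0.959). *gaaR* is absent by design in 8 of these libraries. *pgxC* was most like NRRL3_05283 (0.933) and *gaaB* (0.933), with NRRL3_09810 (0.926), the GA reductase gene *gaaA* (0.926) and the repressor gene *gaaX* (0.922) next. Among the genes nearest to *pgxC*, *pgaX* held place 14 (0.896) and *pgxB* place 57 (0.815). Of the 5 genes of GA uptake and catabolism, only *gatA* lay nearer to *pgaX* (place 7, 0.938) than to *pgxC* (place 15, 0.895). The others lay nearer to *pgxC* than to *pgaX*. These were *gaaA* (place 4 against 10, 0.926 against 0.918) and *gaaB* (2 against 13, 0.933 against 0.908). The same held for *gaaC* (8 against 11, 0.92 against 0.917) and *gaaD* (102 against 271, 0.779 against 0.654).

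No gene next to a member by locus tag was lower in all of the GA, SBP 2 h and SBP 8 h comparisons. The share of all genes lower in these comparisons together was not computed, so this count cannot be weighed. NRRL3_08280, the tag before *pgxB*, was lower on SBP at 2, 8 and 24 h (-3.35, -1.15 and -1.36) but higher on GA (2.04). NRRL3_05261, the tag after *pgxC*, was lower on SBP at 2 and 8 h (-4.68 and -1.13) and was not called on GA or at 24 h. Of the 12 tags within 2 numbers of a member 11 were tested. After GA 3 of them were lower and 3 higher in the ΔgaaR strain, and after SBP 3 and 2 at 2 h, 5 and 3 at 8 h, and 3 and 1 at 24 h. Of all genes tested, 23.5% were lower after GA and 7.21%, 21.4% and 15.8% after 2, 8 and 24 h of SBP. The shares that were higher were 26.2% after GA and 7.35%, 22.4% and 12.6% after 2, 8 and 24 h of SBP. Position on the chromosome was not examined beyond the order of the tags.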

How the data were processed

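RNA of 16 A. niger libraries was analysed. Per the file headers, the authors deposited for each library an RSEM expected count, an FPKM value and a length per gene. BWA and Bowtie2 are also listed in the submitters' processing notes, with no version or role. Expected counts were deposited without normalization, and 0.33% of listed values were not whole. The authors scaled the deposited FPKM to length and library. Lengths were multiples of 3 (coding length). An unlisted gene was taken as 0.

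Rounded counts were tested with edgeR 4.0.16 in R 4.3.3 (TMM scaling, filterByExpr, quasi-likelihood F test, two-sided). All 16 libraries entered 1 fit with a mean per group, leaving 10003 genes. P-values were adjusted by Benjamini-Hochberg over all genes, and a gene was called under 0.05. The SE comes from the curvature of the fit, with 15.8 degrees of freedom for 95% intervals. Gene ratios used log2(count + 0.5). Alternatives were RLE and total count scaling, no filter, DESeq2 1.42.0, limma 3.58.1 on log2(FPKM + 1) or log2(FPKM + 0.1), only the groups compared, a replicate block and each library left out. Python 3.11.15 made the figures. The fit was tested on simulated data. Named were the 3 members, up to 2 called genes of a list with the largest change, and the 5 genes most like each member, unnamed ones limited to 2. Also named were list genes not called at 24 h, the GA uptake and catabolism genes in the likeness ranking, and 2 tags next to members. Gene names were recalled from publications, since no table used here pairs them with tags. Members and lists were chosen with earlier results of these data known. A promoter motif search was planned and not run, as no sequence was used here.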

Additional observations from a re-analysis of the deposited data

Results flagged for a closer look

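The deletion effect on *pgxC* differed between 24 and 8 h on SBP by 5.37 and between 24 and 2 h by 5.93 on the log2 scale (edgeR interaction tests). It came with the reference level, which lay between 187 and 226 FPKM at 2 and 8 h and at 7.87 and 7.92 at 24 h, while the ΔgaaR level lay between 2.48 and 5.97 at 2 and 8 h and at 7.13 and 9.29 at 24 h. The deletion effect on *pgxB* differed between SBP and GA at 2 h by -3.07, a value that turned to 1.13 without 1 ΔgaaR library on GA.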

How the results depend on the processing

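The 12 deletion effects of the 3 genes kept their direction, or for *pgxC* at 24 h their lack of a call, in 144 of 144 alternative values. Over all 51 results 600 of 648 values did so. Fitting only the groups compared added calls for *pgxB* in the reference strain (1.16 from GA to SBP, 0.60 from 2 to 8 h, -1.20 from 8 to 24 h) and in the ΔgaaR strain for *pgxB* (2.12 from 2 to 8 h, -2.29 from 8 to 24 h) and *pgaX* (-2.39), the last 2 also without the filter (-2.29 and -2.39). Limma on log2(FPKM + 0.1) lost *pgxC* on SBP against GA (1.04) and *pgaX* at 24 h (-3.11 and -2.82). *pgxC* at 24 against 2 h in the ΔgaaR strain passed with RLE (1.11), total counts (1.42), no filter (1.02), limma (1.17 and 1.38), the replicate block (1.04) and DESeq2 (1.12). The *pgxB* difference between SBP and GA was lost with limma (-2.03 and -1.86), the replicate block (-2.95), DESeq2 (-3.10) and only the groups compared (-3.06). DESeq2 called that of *pgxC* (-1.28). The ratio of *pgaX* to *pgxC* missed the threshold without SBP at 2 h (-2.13), 8 h (-2.90) or 24 h (-1.37), where fewer arrangements remain. That of *pgxB* to *pgxC* passed with log2(FPKM + 1) (-2.23), log2(count + 3) (-2.30) and without GA (-2.92). Apart from what the construction of each alternative shows, the cause was not tested.

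With each library left out in turn, ranges were 0.86 to 1.12 for *pgxC* on SBP against GA in the reference strain. In the ΔgaaR strain they were -5.17 to 1.60 (*pgaX*) and -3.01 to 2.35 (*pgxB*) for SBP against GA, 1.02 to 5.07 for *pgaX* at 8 against 2 h, and 0.18 to 1.46 for *pgxC* at 24 against 8 h. For the difference of deletion effects between SBP and GA they were -5.55 to 1.21 (*pgaX*), -4.23 to 1.13 (*pgxB*) and -1.87 to -0.30 (*pgxC*). For *pgaX* they were 0.86 to 4.91 between 8 and 2 h and 1.66 to 5.71 between 24 and 2 h.

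Replicate numbers were not taken as pairs. Between groups the differences of replicate 1 and 2 correlated at -0.43 to 0.33, with 22 of 28 correlations above 0. The replicate block changed no other call of these genes. Total count scaling moved the median of all genes by up to 0.39 (24 against 2 h, ΔgaaR strain). With it, the share of higher among called genes went from 44.3% to 57.5% for deletion at 24 h, from 53.1% to 64.1% for 24 against 2 h in the reference strain, and in the ΔgaaR strain from 48.3% to 70% for 24 against 2 h and from 48.2% to 69.9% for 24 against 8 h. The count of all genes called by deletion on SBP at 2 h went from 1456 to 736 with only those groups and to 592, 572 and 634 without single libraries, and at 24 h from 2847 to 1722. In the ΔgaaR strain it went from 3103 to 1413 for SBP against GA, from 3030 to 1940 for 8 against 2 h, and from 2902 to 1835 and 1714 for 24 against 8 h. For the effect at 24 minus 2 h it went from 2396 to 1509. Of the 5 genes most like each member 4 or 5 were shared on the log2(FPKM + 1) scale. Depth limits the ΔgaaR values, which rest on 3 to 209 reads.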
